A study of Saccharomyces cerevisiae S288C with 4 samples.

Results

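The 38 genes described here carry out or control iron and copper handling in *Saccharomyces cerevisiae*. They were taken by gene symbol from a table of 6396 genes, and all 38 were found there and passed the filter on low counts. By role they comprise 2 genes of high-affinity iron uptake, 1 low-affinity metal transporter, 7 metalloreductases, 4 siderophore transporters, 3 cell wall mannoproteins, 4 genes of vacuolar iron, 4 of mitochondrial iron and iron-sulfur cluster assembly, 2 linked to heme and biotin, 5 regulators of iron and 6 genes of copper uptake and delivery.

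RNA was sequenced from *tho2Δ* cells (FY254, the BY4741 background with *THO2* replaced by KanMX4) and from WT cells (BY4741, a MATa haploid laboratory strain with ura3Δ0, leu2Δ0, his3Δ1 and met15Δ0, alleles that both strains carry). Tho2 is a subunit of the THO complex, which couples transcription to the packaging and export of mRNA. Both strains grew at 30°C to mid-log phase in YPD, a rich medium of yeast extract, peptone and dextrose, and each gave 2 libraries, numbered 3 and 4. By the stated strain names each genotype is represented by 1 strain, but the *LEU2* counts given below differed between the libraries of each genotype. No source says that the duplicate RNA samples came from separate cultures. Every p-value therefore reflects the spread of these RNA samples alone, and whether that spread is technical is not known.

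Budding yeast takes up iron after metalloreductases at the cell surface reduce it. The ferroxidase Fet3 and the permease Ftr1 then carry it in as 1 complex, while siderophore transporters bring in iron that other organisms have chelated. When iron is low, the transcription factors Aft1 and Aft2 activate these genes, which together are called the iron regulon, and the RNA-binding proteins Cth1 and Tis11 (also named Cth2) promote decay of mRNAs for iron-consuming processes. When iron is high, Yap5 activates storage in the vacuole. Copper is bound to this system because Fet3 is a copper enzyme: Mac1 activates copper uptake when copper is low, and Atx1 and Ccc2 pass copper to Fet3 in the secretory pathway.

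The libraries held 31417222 and 36989697 counts for *tho2Δ* and 33543267 and 32401027 counts for WT. *THO2* had 1 count in each *tho2Δ* library, against 4011 and 2457 counts in the WT libraries. The MATa genes *MFA1*, *MFA2*, *STE2* and *BAR1* had 434 counts or more in every library, and *URA3* and *MET15*, deleted in both strains, had 0. The MATalpha genes, which should be absent, were not at 0. *STE3* had 106 and 105 counts in *tho2Δ*, against 149 and 120 in WT. *MF(ALPHA)1* had 48 and 63 counts in *tho2Δ*, against 16 and 28 in WT, and *MF(ALPHA)2* had 62 and 45, against 22 and 4. *HIS3*, of which the his3Δ1 allele leaves part, had 586 and 674 counts in the *tho2Δ* libraries, against 841 and 981 counts in the WT libraries. *LEU2*, which the leu2Δ0 allele of both strains removes, had 511 and 4276 counts in the *tho2Δ* libraries, against 0 and 2512 counts in the WT libraries. At this gene 3 of the 4 libraries thus went against their stated genotype, and the libraries of each genotype differed from each other. Whether that bears on any value below was not tested. The WT libraries were further apart than the *tho2Δ* libraries: the median absolute log2 difference between replicates over the 38 genes was 0.104 for *tho2Δ* and 0.356 for WT. In WT, 27 of the 38 genes were lower in replicate 4 than in replicate 3.

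Levels are given as CPM, read counts relative to library size, after scaling by the trimmed mean of M-values (TMM), a method that sets the bulk of genes to no change. Differences are log2 fold changes of *tho2Δ* over WT from edgeR's quasi-likelihood test, with a standard error (SE) and a p adjusted over all 5890 genes tested (Benjamini-Hochberg, threshold 0.05). Bulk RNA gives the level per unit of RNA, so fewer cells of a kind and less RNA per cell cannot be told apart. With 2 libraries against 2, an exact permutation test of a single gene could not go below p = 0.333.

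The iron and copper genes did not move as 1 block. Of the 38, 15 were higher in *tho2Δ* (39.5%, against 18.8% of all genes tested) and 4 were lower (10.5%, against 19.1% of all genes tested). Calls in either direction made up 50% of the 38 genes and 38.0% of all genes tested. The calls for higher levels lay among the metalloreductases (4 of 7), copper genes (4 of 6), vacuolar iron genes (2 of 4), iron regulators (2 of 5), high-affinity iron uptake (1 of 2), heme and biotin (1 of 2) and mitochondrial iron (1 of 4). The 4 lower genes were *FET4*, *FTR1*, *FIT3* and *ARN2*, which all take part in uptake of iron at the cell surface. So do *FET3*, *FRE1*, *FRE2* and *FRE3* among the higher genes. The median log2 fold change of the 38 genes was 0.41, a 1.33-fold higher level, against 0.01 over all genes tested, and 3 of the 15 higher genes passed 2-fold (*FRE7*, *CTH1* and *FRE1*). Both *tho2Δ* libraries lay outside the range of the WT libraries for 28 of the 38 genes (73.7%), which is close to the 74.9% of all genes tested that did so. The direction was positive for 28 genes and negative for 10. Together the 38 genes took 0.2125% and 0.2041% of all counts in *tho2Δ*, against 0.1483% and 0.1026% in WT. These shares are of raw library totals and not TMM-scaled. On library totals the median log2 fold change of all genes was itself 0.45.

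**Figure D1:**
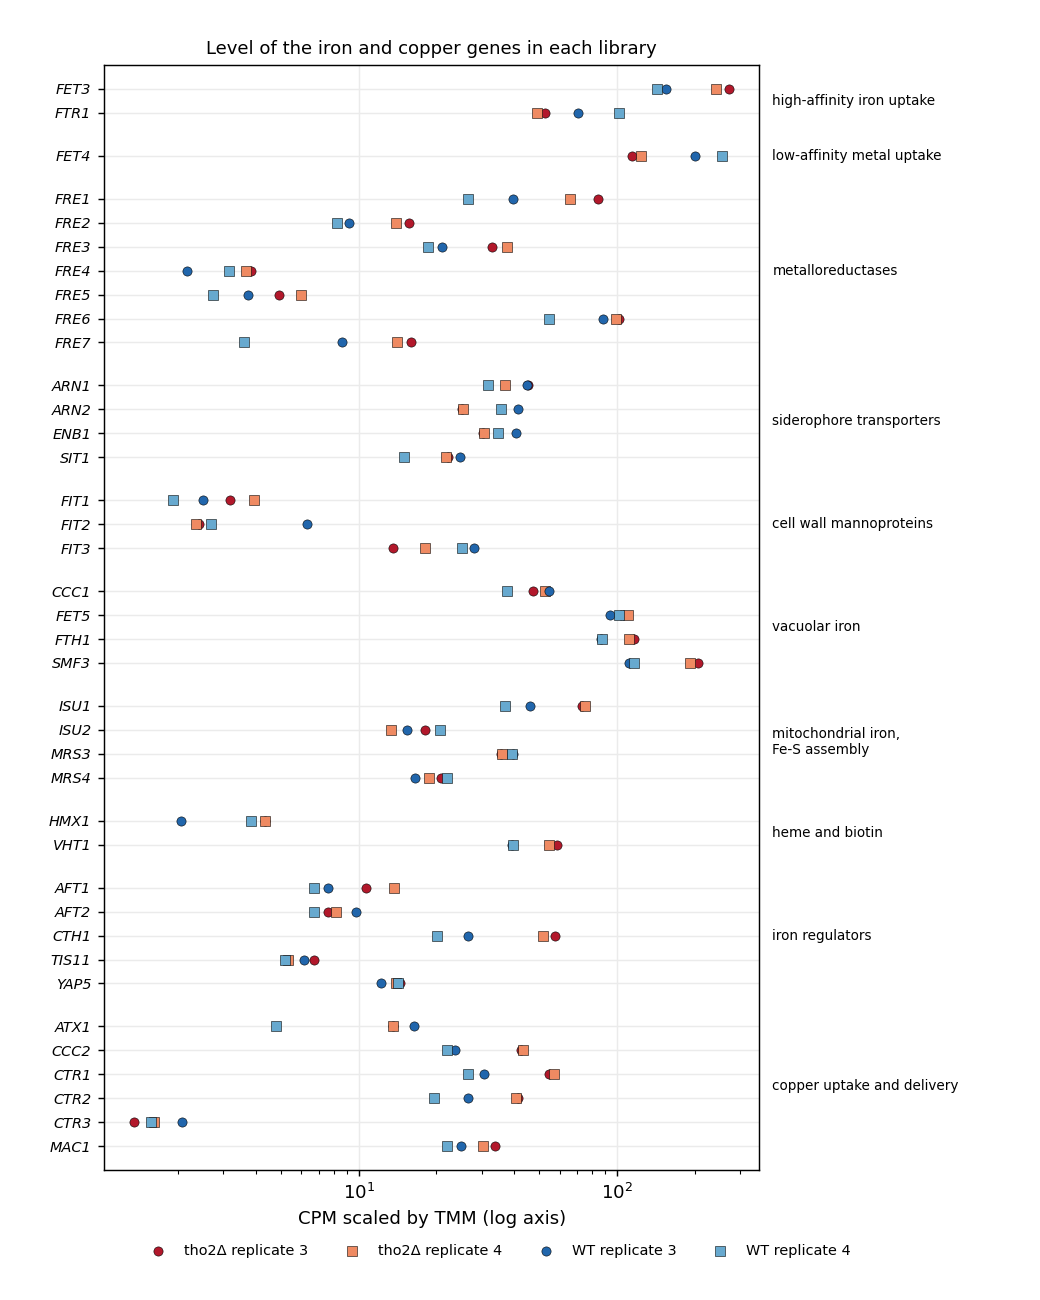
TMM-scaled CPM of the 38 genes in each library on a log axis, grouped by role. Circles are replicate 3 and squares replicate 4, in red shades for *tho2Δ* and blue shades for WT. The *tho2Δ* points of *FRE1* (84.6 and 65.9 CPM) lie to the right of its WT points (39.6 and 26.4 CPM), while those of *FET4* and *FTR1* lie to the left.

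The 4 lower calls held with size factors by median of ratios and in DESeq2, but not with library totals or TPM. With library totals, the median of all genes was 0.45 rather than 0.01 and the counts became 14 higher and 0 lower, although the 4 genes kept a negative log2 fold change (*FET4* −0.47, *FIT3* −0.31, *FTR1* −0.28, *ARN2* −0.18). Without *tho2Δ* replicate 3 or 4, most calls were lost, but the spread then came from the WT libraries alone. Those were further apart than the *tho2Δ* libraries, so a call lost there does not show that it rests on both *tho2Δ* libraries. The log2 fold change without *tho2Δ* replicate 3 or 4 was 0.92 or 0.89 for *CCC2* (0.91 with all libraries). For *SMF3* it was 0.75 or 0.85 (0.8 with all libraries). It moved further for *AFT1*, to 0.93 or 0.58 (from 0.77), and for *FIT3*, to −0.56 or −0.97 (from −0.75). All 19 called genes kept their sign under each of these settings.

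**Figure D2:**
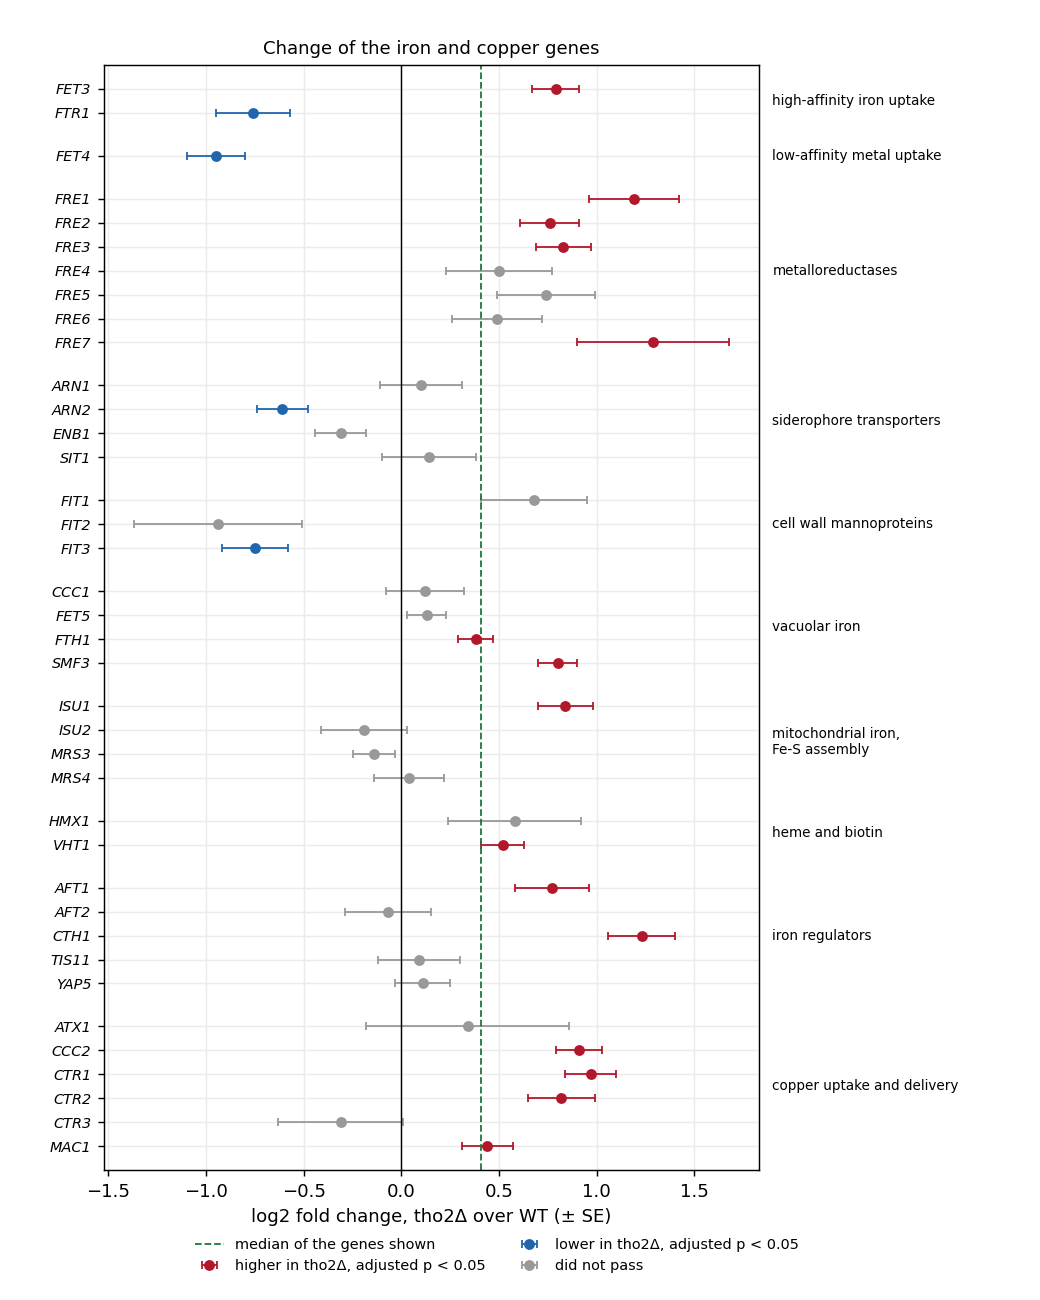
Log2 fold change of *tho2Δ* over WT with its SE for the 38 genes, grouped by role, from edgeR's quasi-likelihood test on 2 libraries per strain. Red marks the 15 higher genes, blue the 4 lower genes and grey the 19 that did not pass, and the dashed line is the median of the 38 (0.41). With library totals or TPM in place of TMM scaling, the grey points of *AFT2*, *CTR3*, *ENB1*, *ISU2* and *MRS3* move from below to above 0.

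The 2 components of the high-affinity iron transporter moved in opposite directions. *FET3*, which encodes the multicopper ferroxidase, had 272 and 241 CPM in *tho2Δ*, against 155 and 143 CPM in WT. *FTR1*, which encodes the permease that needs Fet3 to reach the cell surface, had 52.6 and 49.0 CPM in *tho2Δ*, against 70.6 and 102 CPM in WT. Neither gene overlapped between the strains. *FET3* rose by a log2 fold change of 0.79 (SE 0.12, edgeR adjusted p = 0.00667), and *FTR1* fell by 0.76 on the log2 scale (SE 0.19, edgeR adjusted p = 0.0292). On deposited TPM, which is per length and whose ratio within a library does not depend on scaling between libraries, *FET3* stood at 3.29 and 3.13 times *FTR1* in *tho2Δ*, against 1.39 and 0.894 times in WT. The call of *FTR1* was lost with library totals (edgeR adjusted p = 0.387). Without *tho2Δ* replicate 3 or 4, the edgeR adjusted p was 0.107 or 0.0678 for *FET3* and 0.132 or 0.159 for *FTR1*.

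Both promoters hold the Aft1/Aft2 motif, searched as TGCACCC or TACACCC or CGCACCC or CACACCC on both strands. The matches within 500 bases of the first coding base are printed with 10 bases on each side, read on the strand of the gene in build R64, because the 2 genes share the motif and not the direction of change. Capitals mark the motif or its reverse complement, and positions are those of its first base counted back from the start codon.
FET3 at −380, chrXIII:388432-388458, + strand: tttactttccGGGTGCGaatcagcccg
FET3 at −251, chrXIII:388561-388587, + strand: tcttcaaaagTGCACCCatttgcaggt
FTR1 at −365, chrV:462089-462115, − strand: ttccaggccaGGGTGCAgaaatactat
FTR1 at −175, chrV:461899-461925, − strand: cgtagatgaaTGCACCCgatttctaag

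The low-affinity transporter *FET4*, which brings in ferrous iron and also copper and zinc, had the lowest fold change among the 38 genes with TMM scaling. It had 114 and 124 CPM in *tho2Δ*, against 201 and 255 CPM in WT, with no overlap. *FET4* fell by 0.95 on the log2 scale (SE 0.15, edgeR adjusted p = 0.0073). It was the most abundant of the 38 in WT on TPM, with a mean of 70.6 TPM in *tho2Δ* and 102 TPM in WT. Its call was lost with library totals (edgeR adjusted p = 0.12) and without *tho2Δ* replicate 3 or 4 (edgeR adjusted p = 0.0924 or 0.0729).

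All 7 metalloreductase genes had positive log2 fold changes, between 0.49 and 1.29 with a median of 0.76. Of the 7, 4 rose, where 18.8% of all genes tested did. *FRE1*, the main reductase of the cell surface for both iron and copper, had 84.6 and 65.9 CPM in *tho2Δ*, against 39.6 and 26.4 CPM in WT. It rose 2.28-fold (log2 fold change 1.19, SE 0.23, edgeR adjusted p = 0.0143). *FRE7*, a reductase gene induced by low copper, had 16.0 and 14.1 CPM in *tho2Δ*, against 8.59 and 3.59 CPM in WT. It rose by a log2 fold change of 1.29 (SE 0.39, edgeR adjusted p = 0.0493), the highest value of the 38 genes with all 4 libraries. The WT libraries of *FRE7* differed more from each other than its *tho2Δ* libraries did. Its log2 fold change was 2.04 without WT replicate 3 and 0.80 without WT replicate 4. The latter was below the values of *HMX1* (1.07), *CTH1*, *FRE1*, *CTR1*, *CCC2* and *SMF3* in the same fit. The call of *FRE7* was lost without the filter on low counts (edgeR adjusted p = 0.0531).

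*FRE2*, the second surface reductase for iron, had 15.7 and 13.9 CPM in *tho2Δ*, against 9.16 and 8.28 CPM in WT (log2 fold change 0.76, SE 0.15, edgeR adjusted p = 0.014). *FRE3*, which reduces iron bound to siderophores, had 32.9 and 37.4 CPM in *tho2Δ*, against 21.0 and 18.6 CPM in WT (log2 fold change 0.83, SE 0.14, edgeR adjusted p = 0.00815). In both genes the *tho2Δ* libraries lay above the WT libraries. These coding sequences are 77.5% identical over 99.0% of the length, the closest pair of the 38, which was under the limit set for near-identical copies. The genes that did not pass were *FRE4*, a siderophore reductase, *FRE5*, and *FRE6*, a reductase of the vacuolar membrane, with log2 fold changes of 0.50, 0.74 and 0.49 and edgeR adjusted p of 0.199, 0.066 and 0.142. Without WT replicate 3 or 4, the log2 fold change was 0.22 or 0.78 for *FRE4*, 0.97 or 0.53 for *FRE5* and 0.86 or 0.18 for *FRE6*. Without *tho2Δ* replicate 3, *FRE1*, *FRE2*, *FRE3* and *FRE7* had edgeR adjusted p between 0.0578 and 0.177, and without *tho2Δ* replicate 4 *FRE1* passed at 0.046 while the other 3 lay between 0.10 and 0.134.

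Of the 4 siderophore transporter genes, 0 rose and 1 fell in the test on all 4 libraries. *ARN2*, the transporter for triacetylfusarinine C, had 25.2 and 25.4 CPM in *tho2Δ*, against 41.3 and 35.6 CPM in WT. *ARN2* fell by 0.61 on the log2 scale (SE 0.13, edgeR adjusted p = 0.018). The call was lost with library totals (log2 fold change −0.18, edgeR adjusted p = 0.667) and without *tho2Δ* replicate 3 or 4 (edgeR adjusted p = 0.177 or 0.194). *ENB1*, which imports enterobactin, had 30.3 and 30.6 CPM in *tho2Δ*, against 40.8 and 34.6 CPM in WT, a log2 fold change of −0.31 that did not pass and was 0.12 with library totals. Without WT replicate 3 or 4, the log2 fold change was −0.21 or −0.43 for *ENB1* and 0.52 or −0.18 for *SIT1*. *ARN1*, for ferrichrome, and *SIT1*, for ferrioxamine B, had log2 fold changes of 0.10 and 0.14, and their libraries overlapped between the strains.

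Of the 3 genes of the FIT family, cell wall mannoproteins that hold siderophore-bound iron at the cell surface, 1 fell and 2 did not pass. *FIT3* had 13.6 and 18.0 CPM in *tho2Δ*, against 27.9 and 25.2 CPM in WT. It fell by 0.75 on the log2 scale (SE 0.17, edgeR adjusted p = 0.0232), and this call was lost with library totals (edgeR adjusted p = 0.458) and without *tho2Δ* replicate 3 or 4 (edgeR adjusted p = 0.186 or 0.0601). *FIT2* had 89 and 102 counts in *tho2Δ*, against 213 and 63 in WT, or 2.41 and 2.35 CPM in *tho2Δ*, against 6.33 and 2.69 CPM in WT. The log2 fold change of *FIT2* was −0.94 (edgeR adjusted p = 0.136), which was −0.20 without WT replicate 3 and −1.42 without WT replicate 4. *FIT1*, at 3.17 and 3.94 CPM in *tho2Δ*, against 2.50 and 1.92 CPM in WT, had a positive log2 fold change of 0.68 (edgeR adjusted p = 0.104). Without WT replicate 3 or 4 that value was 0.87 or 0.50.

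*FRE3*, *FIT2*, *FIT3* and *FRE5* lie side by side on chromosome XV, from 1055545 to 1063648 in R64, and their log2 fold changes in that order were 0.83, −0.94, −0.75 and 0.74. Of these 4, *FRE3* rose and *FIT3* fell, while *FIT2* and *FRE5* did not pass, and the value of *FIT2* was −0.20 without WT replicate 3. *FIT3* and *FRE5* are divergent genes with 508 bases between them, and the same 3 Aft1/Aft2 matches lie within 500 bases of both start codons. They are printed once, on the strand of *FRE5*, since 1 set of sites stands before a gene that fell and a gene that did not pass and had a positive value. Capitals mark the motif or its reverse complement.
FRE5 at −331 and FIT3 at −184, chrXV:1061223-1061249, + strand: cccattttttTGCACCCtttcctagaa
FRE5 at −246 and FIT3 at −269, chrXV:1061308-1061334, + strand: tgggatagcgGGGTGCGgaacaaacag
FRE5 at −230 and FIT3 at −285, chrXV:1061324-1061350, + strand: ggaacaaacaGGGTGCAaaaaaaaatc

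Of the 4 genes of vacuolar iron, *SMF3* and *FTH1* rose. *SMF3*, a transporter that releases iron from the vacuole, had 205 and 191 CPM in *tho2Δ*, against 111 and 116 CPM in WT. It rose 1.74-fold (log2 fold change 0.80, SE 0.10, edgeR adjusted p = 0.00428). *FTH1*, the vacuolar counterpart of the permease *FTR1*, had 116 and 111 CPM in *tho2Δ*, against 86.9 and 87.6 CPM in WT (log2 fold change 0.38, SE 0.09, edgeR adjusted p = 0.0282), and its call was lost in DESeq2 (adjusted p = 0.0526) and with a replicate block (edgeR adjusted p = 0.0641). *FET5*, the vacuolar ferroxidase that pairs with Fth1, had a log2 fold change of 0.13, and *CCC1*, which imports iron into the vacuole for storage, one of 0.12. Neither *FET5* nor *CCC1* passed (edgeR adjusted p = 0.373 and 0.667), and the log2 fold change of *CCC1* was 0.39 or −0.13 without WT replicate 3 or 4. The edgeR adjusted p without *tho2Δ* replicate 3 or 4 was 0.0768 or 0.0578 for *SMF3* and 0.308 or 0.216 for *FTH1*.

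The surface and vacuolar versions of the same machinery were also set against each other within each library. *FTR1* stood at 0.522 and 0.506 times *FTH1* on TPM in *tho2Δ*, against 0.935 and 1.34 times in WT. *FET3* made up 72.0% and 68.1% of the summed TPM of *FET3* and *FET5* in *tho2Δ*, against 61.7% and 57.8% in WT. The permease ratio was lower and the ferroxidase share higher in both *tho2Δ* libraries than in either WT library.

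**Figure D3:**
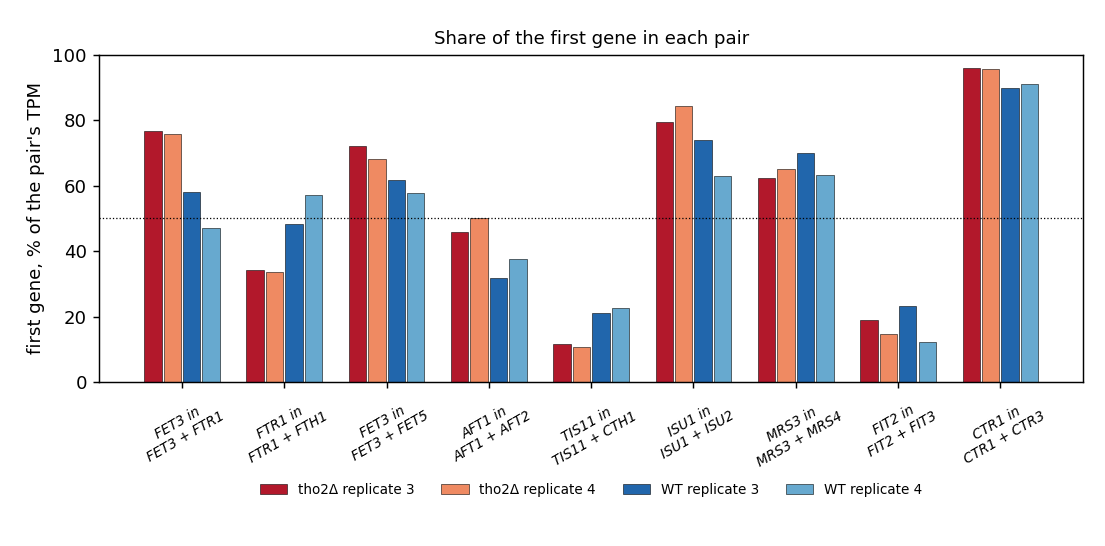
Share of the first gene in the summed TPM of each pair, in percent, for the *tho2Δ* libraries (red shades) and WT libraries (blue shades). The dotted line marks equal levels. *FET3* held 76.7% and 75.8% of the *FET3* and *FTR1* sum in *tho2Δ*, against 58.2% and 47.2% in WT, while the bars of *MRS3* and of *FIT2* overlap between the strains.

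In the mitochondrion, *ISU1* rose and its paralog *ISU2* did not pass. The 2 genes encode the scaffold on which iron-sulfur clusters are built. *ISU1* had 73.1 and 75.4 CPM in *tho2Δ*, against 46.0 and 36.7 CPM in WT (log2 fold change 0.84, SE 0.14, edgeR adjusted p = 0.00902). *ISU2* had 18.1 and 13.3 CPM in *tho2Δ*, against 15.4 and 20.6 CPM in WT, a log2 fold change of −0.19 that was 0.28 with library totals. On TPM, *ISU1* stood at 3.83 and 5.34 times *ISU2* in *tho2Δ*, against 2.83 and 1.69 times in WT. The mitochondrial iron carriers *MRS3* and *MRS4* had log2 fold changes of −0.14 and 0.04, of which *MRS3* was 0.31 with library totals and *MRS4* was −0.18 without WT replicate 3, and neither passed. *ISU1* had an edgeR adjusted p of 0.0764 or 0.0931 without *tho2Δ* replicate 3 or 4.

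*VHT1*, the biotin importer, had 58.3 and 54.3 CPM in *tho2Δ*, against 39.3 and 39.5 CPM in WT. It rose by a log2 fold change of 0.52 (SE 0.11, edgeR adjusted p = 0.0188), and its edgeR adjusted p was 0.238 or 0.188 without *tho2Δ* replicate 3 or 4. *HMX1*, a heme oxygenase that releases iron from heme, had 4.33 CPM in both *tho2Δ* libraries, against 2.05 and 3.84 CPM in WT. Its log2 fold change of 0.58 did not pass (edgeR adjusted p = 0.227) and was 0.15 or 1.07 without WT replicate 3 or 4.

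Within each paralog pair of iron regulators, 1 gene rose and the other did not pass. *CTH1*, for an RNA-binding protein that promotes decay of mRNAs of iron-using proteins, had 57.3 and 51.6 CPM in *tho2Δ*, against 26.4 and 20.1 CPM in WT. It rose 2.34-fold (log2 fold change 1.23, SE 0.17, edgeR adjusted p = 0.00503) and was the only one of the 19 called genes that passed without either *tho2Δ* replicate 3 or *tho2Δ* replicate 4. *TIS11*, its paralog, had 6.74 and 5.35 CPM in *tho2Δ*, against 6.15 and 5.17 CPM in WT. The log2 fold change of *TIS11* was 0.09 (edgeR adjusted p = 0.764) but −0.04 without WT replicate 4. On TPM, *TIS11* stood at 0.134 and 0.118 times *CTH1* in *tho2Δ*, against 0.265 and 0.292 times in WT.

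*AFT1*, the main activator of the iron regulon, had 10.7 and 13.7 CPM in *tho2Δ*, against 7.61 and 6.70 CPM in WT (log2 fold change 0.77, SE 0.19, edgeR adjusted p = 0.0274). Its call was lost without *tho2Δ* replicate 3 or 4 (edgeR adjusted p = 0.0925 or 0.261) and in limma on log2(TPM + 1) (adjusted p = 0.0511). *AFT2*, the second activator, had 7.63 and 8.18 CPM in *tho2Δ*, against 9.81 and 6.70 CPM in WT, so its libraries overlapped, and its log2 fold change was −0.07 with TMM scaling and 0.34 with library totals. The TPM ratio of *AFT1* to *AFT2* was 0.848 and 1.01 in *tho2Δ*, against 0.469 and 0.604 in WT. *YAP5*, the sensor of high iron, had a log2 fold change of 0.11 (edgeR adjusted p = 0.573), which was −0.02 without WT replicate 3.

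Of the 6 copper genes, 4 rose, where 18.8% of all genes tested did. *CTR1*, the main copper importer of the cell surface, had 54.7 and 56.9 CPM in *tho2Δ*, against 30.5 and 26.4 CPM in WT (log2 fold change 0.97, SE 0.13, edgeR adjusted p = 0.00439). *CTR2*, which releases copper from the vacuole, had 41.2 and 40.5 CPM in *tho2Δ*, against 26.5 and 19.6 CPM in WT (log2 fold change 0.82, SE 0.17, edgeR adjusted p = 0.0168). *CCC2*, the copper pump of the secretory pathway that supplies Fet3, had 42.4 and 43.3 CPM in *tho2Δ*, against 23.7 and 21.9 CPM in WT (log2 fold change 0.91, SE 0.12, edgeR adjusted p = 0.00414). In each of these genes the *tho2Δ* libraries were close to each other and above both WT libraries. *MAC1*, the copper-sensing activator, had 33.8 and 30.3 CPM in *tho2Δ*, against 25.0 and 22.0 CPM in WT (log2 fold change 0.44, SE 0.13, edgeR adjusted p = 0.0477). The call of *MAC1* was lost with library totals (log2 fold change 0.88, edgeR adjusted p = 0.0601), in DESeq2 (adjusted p = 0.0662) and with a replicate block (edgeR adjusted p = 0.0562).

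The other 2 copper genes did not pass. *ATX1*, the chaperone that hands copper to Ccc2, had 13.6 CPM in both *tho2Δ* libraries, against 16.4 and 4.78 CPM in WT. The WT libraries of *ATX1* differed by 1.77 on the log2 scale, the largest gap between replicates among the 38 genes. The log2 fold change of *ATX1* was 1.49 without WT replicate 3 and −0.28 without WT replicate 4. *CTR3*, the second copper importer of the cell surface, had between 37 and 70 counts per library, and its log2 fold change was −0.31 with TMM scaling and 0.11 with library totals. On TPM, *CTR1* stood at 24.0 and 21.0 times *CTR3* in *tho2Δ*, against 8.73 and 10.2 times in WT. Without *tho2Δ* replicate 3, *CTR1* passed at an edgeR adjusted p of 0.049 and *CCC2*, *CTR2* and *MAC1* lay between 0.0555 and 0.358. Without *tho2Δ* replicate 4, the edgeR adjusted p of the 4 genes lay between 0.072 and 0.224.

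Promoters were compared with the calls. In the 300 bases from 250 before to 50 after the first coding base, the Aft1/Aft2 motif stood in 17 of the 38 genes (44.7%), against 5.07% of 6001 promoters of the genome, which describes how the list was made, since the iron regulon is part of it. Of the 17 genes, 4 rose and 3 fell, near the 18.8% and 19.1% of all genes tested that did so, with a median log2 fold change of 0.34. Of the 21 genes without a match, 11 rose and 1 fell, with a median of 0.50. The contrast depends on the edge of the window. *FET3*, *ISU1*, *FRE3* and *FRE2*, which rose, have a match just outside it, at −251, −252, −254 and −264. So do *ISU2* at −256 and *ARN1* at −260, which did not pass. In the 500 bases before the start codon, a window added after seeing the data, 28 of the 38 genes had a match (73.7%, against 8.77% of 6000 promoters). Of these 28 genes, 10 rose and 4 fell (18.8% and 19.1% of all genes tested did), and of the 10 without a match 5 rose and 0 fell. The Yap5 motif, searched as TTACTAA and TTAGTAA, which are reverse complements of each other, stood in 3 genes in the 300-base window (7.89%, against 7.45% of all promoters), a share close to the background. These were *CTH1*, *CTR1* and *FRE1*, which rose, where 18.8% of all genes tested did. In the 500-base window it stood in 7 genes (18.4%, against 11.8% of all promoters), of which 4 rose and *CCC1*, *ISU2* and *MRS4* did not pass.

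The Mac1 motif, searched as TTTGCTC and TTTGCGC on both strands, stood in 6 of the 38 genes in the 300-base window (15.8%, against 7.77% of 6001 promoters). These were *FRE7* with 2 overlapping matches and *FRE1*, *FET3*, *FTR1*, *AFT2* and *ATX1*, and *CTR1* had 0 matches there. Of the 6 genes, 3 rose and 1 fell (18.8% and 19.1% of all genes tested did). The match of *FET3* starts at base 12 of the coding sequence, and *FET3* had 0 matches in the 500 bases upstream. In the 250 bases before the start codon alone, the motif stood in 5 genes (13.2%, against 6.52% of promoters), of which 2 rose and 1 fell. In the 500-base window added after seeing the data, the motif stood in 7 genes (18.4%, against 12.7% of 6000 promoters). In 3 of the 7, *FRE7*, *FRE1* and *CTR1*, it occurred 2 times or more. This cut was not planned, and the share of all promoters that meet it was not counted, so it is no test of the motif. The log2 fold changes of these 3 genes were 1.29, 1.19 and 0.97, and 0.80, 0.92 and 0.86 without WT replicate 4. The other 4 genes had 1 match each, and of these *FTR1* fell and *AFT2*, *ATX1* and *ENB1* did not pass. *IRC7* and *REE1*, targets of Mac1 that are outside the 38 genes and were looked up after the values were seen, had log2 fold changes of −0.13 and −0.08 that did not pass (edgeR adjusted p = 0.488 and 0.557) and that were 0.34 and 0.37 with library totals. The sites of the 3 genes with repeated matches are printed for comparison of their number, spacing and strand. Capitals mark the motif or its reverse complement, and the 2 last sites overlap, because TTTGCGC and its reverse complement GCGCAAA share 4 bases there.
CTR1 at −334, chrXVI:785864-785890, + strand: tcatgggataTTTGCTCaagacgacgg
CTR1 at −311, chrXVI:785887-785913, + strand: acggtaaaatGAGCAAAaatggcacga
FRE1 at −286, chrXII:568271-568297, + strand: cgccgatattTTTGCTCaccttttttt
FRE1 at −269, chrXII:568288-568314, + strand: acctttttttTTTGCTCatcgaaaatt
FRE1 at −96, chrXII:568461-568487, + strand: tttgaagtcgTTTGCTCtcttccatgc
FRE7 at −344, chrXV:40394-40420, + strand: atcctcgtctGCGCAAAttgaaaaagt
FRE7 at −177, chrXV:40561-40587, + strand: tacgtgagcaTTTGCGCaaattcactt
FRE7 at −174, chrXV:40564-40590, + strand: gtgagcatttGCGCAAAttcacttctt
A match is a description of the letters, and binding of Mac1 or of the Aft proteins was not measured.

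**Figure D4:**
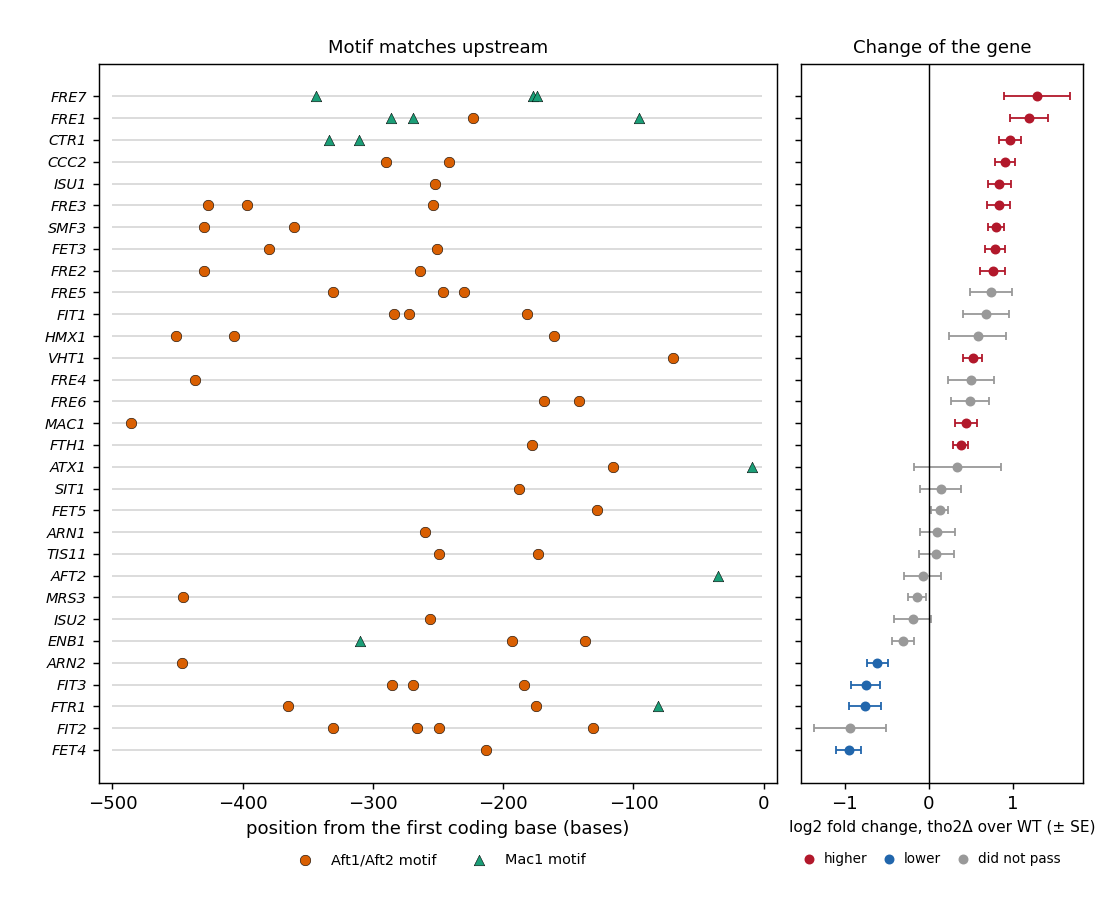
Left, positions of Aft1/Aft2 motif matches (orange circles) and Mac1 motif matches (green triangles) in the 500 bases before the start codon of the genes that hold either, on either strand. Right, log2 fold change of *tho2Δ* over WT with its SE for the same genes, red for higher, blue for lower and grey for those that did not pass. *FRE7*, *FRE1* and *CTR1*, with repeated Mac1 matches in this window, are the upper 3 rows, and *CTH1*, with no match of either motif, is not shown. The window and the grouping by repeated matches were not planned. Aft1/Aft2 matches occur along the whole range of fold changes. The values of *AFT2*, *MRS3*, *ISU2* and *ENB1* change from negative to positive with library totals or TPM.

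Other genes of metal handling were taken from 8 lists of 115 genes, of which 113 were tested. Of the 113, 23 rose (20.4%, against 18.8% of all genes tested) and 27 fell (23.9%, against 19.1%), which is near the background. Their median log2 fold change was −0.10, against 0.41 for the 38 genes and 0.01 for all genes. Without *tho2Δ* replicate 3 or 4, 8 and 8 were called higher and 7 and 6 lower. Among 4 genes that sense iron together with Aft1 and Aft2, *FRA1* rose (log2 fold change 0.69, edgeR adjusted p = 0.00804) and the glutaredoxin gene *GRX4* fell (log2 fold change −0.76, edgeR adjusted p = 0.00682). Among 26 genes of iron-sulfur cluster assembly, 2 rose (7.69%) and 6 fell (23.1%), with a median of −0.14. The 2 were the mitochondrial genes *SSQ1* and *ARH1*, whose calls were lost with library totals (edgeR adjusted p = 0.0544 and 0.0507), that of *ARH1* also in DESeq2 (adjusted p = 0.0746) and with a replicate block (edgeR adjusted p = 0.0794). *CFD1*, for a scaffold of the cytosolic pathway, fell (log2 fold change −0.78, edgeR adjusted p = 0.0106). The fall of *GRX4* and *CFD1* was not called with library totals (edgeR adjusted p = 0.401 and 0.418).

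Of 24 iron-using enzymes, 9 rose (37.5%, against 18.8% of all genes tested) and 8 fell (33.3%, against 19.1%). The respiratory complex III genes *CYT1* and *RIP1* rose by log2 fold changes of 1.81 and 1.51 (edgeR adjusted p = 0.00131 for each), while *RLI1*, for an iron-sulfur protein of ribosome recycling and export, and *TYW1*, for a tRNA-modifying enzyme, fell by 1.13 and 1.06 on the log2 scale (edgeR adjusted p = 0.00333 and 0.00299). *RLI1* had 223 CPM in both *tho2Δ* libraries, against 456 and 522 CPM in WT. In heme synthesis, 2 of 11 genes rose (18.2%) and 3 fell (27.3%). *HEM13*, for the oxygen-dependent coproporphyrinogen oxidase, had 93.2 and 98.8 CPM in *tho2Δ*, against 276 and 401 CPM in WT (log2 fold change −1.82, edgeR adjusted p = 0.00299). *HEM13* and *RLI1* remained lower with library totals (edgeR adjusted p = 0.00412 and 0.0424), and *TYW1* did not pass there (0.121).

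Among 14 copper-binding and copper-using genes, 2 rose (14.3%, against 18.8% of all genes tested) and 1 fell (7.14%, against 19.1%). The metallothionein gene *CRS5* had 17.8 and 16.0 CPM in *tho2Δ*, against 6.48 and 8.33 CPM in WT (log2 fold change 1.19, edgeR adjusted p = 0.00615), and *CCS1*, the copper chaperone of superoxide dismutase, fell by 0.86 on the log2 scale (edgeR adjusted p = 0.00411), a call that was lost with library totals (log2 fold change −0.43, edgeR adjusted p = 0.262). Of 12 genes for manganese and other metals, 3 rose (25.0%) and 2 fell (16.7%). *PIC2*, a mitochondrial carrier of copper and phosphate, had 144 CPM in both *tho2Δ* libraries, against 52.5 and 58.6 CPM in WT (log2 fold change 1.38, edgeR adjusted p = 0.00183). Of 11 zinc genes, 1 rose (9.09%) and 3 fell (27.3%). The vacuolar importer *COT1* rose by 0.73, and the low-affinity zinc importer *ZRT2* fell by 0.78 on the log2 scale (edgeR adjusted p = 0.00496 and 0.00411). The call of *ZRT2* was lost with library totals (log2 fold change −0.33, edgeR adjusted p = 0.29). *IZH2*, also among the zinc genes, fell by 1.67 on the log2 scale (edgeR adjusted p = 0.00183). It remained lower with library totals (log2 fold change −1.21, edgeR adjusted p = 0.00885). Of 11 further genes tested that are linked to Aft1, Aft2 or iron, 3 rose (27.3%) and 3 fell (27.3%). Among them *BIO5*, for uptake of biotin precursors, had a log2 fold change of 1.44 (edgeR adjusted p = 0.00852).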

How the data were processed

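RNA of *tho2Δ* and WT cells was sequenced on an Illumina instrument, in duplicate. The sample labels describe extraction with a column kit and the methods describe hot phenol. The deposited table gives, for each gene in each library, raw counts of reads, TPM and FPKM. The authors' counts were not normalized, and the deposited TPM takes gene length into account and has a nearly equal total per library. The deposited FPKM (4 columns) was left unused. In the submitters' processing notes stand the build R64 and the tools HISAT2 2.1.0, StringTie 1.3.4d, Trimmomatic and bcl2fastq 2.20.0, without roles. For the annotation and the strand setting, no source used here gives a value. The table's 3 empty lines were left out.

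The main test was the quasi-likelihood test of edgeR 4.0.16 (R 4.3.3) on the counts, with TMM scaling, the package's own filter (filterByExpr, 5890 genes kept), genotype as the sole term and Benjamini-Hochberg adjustment at 0.05. The SE is the absolute log2 fold change over the square root of F. The common biological coefficient of variation was 0.158. As alternatives, library totals, size factors by median of ratios, DESeq2 1.42.0, limma 3.58.1 on log2(TPM + 1) and log2(TPM + 0.1) for a mean of at least 1 TPM, a filter at a mean count of 50, omission of the filter, a replicate block and omission of each library were tried. The code was tested on simulated data. Motifs were counted in the R64 genome from RefSeq, around the first coding base, and copies were sought with BLAST 2.17.0 (at least 95% identity over 50% of the length). None of the 38 genes had such a copy or overlapped another gene.

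All 38 genes were named, with values per library for called genes. Of the other lists, up to 2 genes in each direction with the smallest p and a mean count of at least 50 were eligible. The members and lists were chosen with earlier results of these data known. Depth was 31417222 to 36989697 counts per library, and the 38 genes had 37 to 10466 counts.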

Additional observations from a re-analysis of the deposited data

Results flagged for a closer look

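*LEU2*, a gene that both strains lack by genotype, had counts in 3 of the 4 libraries: 511 in *tho2Δ* replicate 3, 4276 in *tho2Δ* replicate 4 and 2512 in WT replicate 4, against 0 in WT replicate 3. It was singled out because counts are present where the stated genotype predicts a count of 0. Its part in the values of the iron and copper genes was not tested.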

How the results depend on the processing

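Among the 38 genes, 15 were higher and 4 lower with TMM. Leaving out 1 library gave 2 to 21 higher and 0 to 6 lower. Library totals and limma on log2(TPM + 1) or log2(TPM + 0.1) gave 0 lower, where the median log2 fold change of all genes was 0.45, 0.39 and 0.42, and that of the 38 genes 0.85, 0.69 and 0.85. Median-of-ratios size factors gave 15 and 4, DESeq2 gave 13 and 4, and no filter or a mean count of at least 50 gave 14 and 4. Over all genes, 1110 were higher and 1127 lower, which puts 49.6% of calls on the higher side. Leaving out 1 library gave 307 to 1790 higher and 200 to 1847 lower. Library totals gave 303 lower and 79.9% of calls higher, log2(TPM + 1) gave 348 and 77.2%, and log2(TPM + 0.1) gave 335 and 76.2%. The other metal lists had 23 higher and 27 lower, with 8 to 35 higher and 6 to 44 lower when 1 library was left out, and 5, 7 and 7 lower with library totals, log2(TPM + 1) and log2(TPM + 0.1). Over all genes tested, no pairing by replicate number was seen (correlation of same-numbered deviations 0.00146). That value cannot exclude a pairing that acts on some genes, and *LEU2* had more counts in replicate 4 in both strains. A replicate block gave 14 higher and 4 lower among the 38, losing *FTH1* and *MAC1* and gaining *FRE6*. The Aft1/Aft2 motif was found in 28 of the 38 genes in the window from −500 to −1, which was chosen after seeing the data, against 17 in the planned window. Signs reversed only for genes that had not passed. Under library totals, log2(TPM + 1) and log2(TPM + 0.1), the log2 fold change was 0.34, 0.30 and 0.36 for *AFT2*, 0.11, 0.07 and 0.11 for *CTR3*, 0.12, 0.09 and 0.10 for *ENB1*, 0.28, 0.20 and 0.21 for *ISU2*, 0.31, 0.26 and 0.27 for *MRS3*, 0.34, 0.27 and 0.28 for *IRC7*, and 0.37, 0.32 and 0.33 for *REE1*. Leaving out 1 library gave −0.32 to 0.21 for *AFT2*, −0.14 to 0.35 for *ARN1*, −0.28 to 1.49 for *ATX1*, −0.43 to 0.02 for *ISU2*, −0.18 to 0.52 for *SIT1*, −0.08 to 0.25 for *TIS11* and −0.32 to 0.04 for *IRC7*. Without WT replicate 3 it was −0.18 for *MRS4* and −0.02 for *YAP5*. Without WT replicate 4 it was −0.13 for *CCC1*. Without *tho2Δ* replicate 3 it was −0.04 for *MRS4*. The causes were not tested. With 1 library left in a group, its spread was taken to be that of the other group.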
